A study of Mus musculus with 2 samples.

Results

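The cytosolic ribosomal proteins, the proteins that build both subunits of the ribosome outside mitochondria, were examined in the intestine of ERAP1 WT and ERAP1+/- mice. They were selected by gene symbol, as Rpl or Rps followed by a number, Rplp0 to Rplp2 and Rpsa, without pseudogene symbols ending in -ps and without the S6 kinase genes. This gave 91 of the 40879 gene symbols. Of the 91, 46 are proteins of the large subunit and 31 of the small subunit, here called the 77 standard members. A further 9 are paralogs of standard members, 4 are other symbols that match the pattern (Rpl32l, Rpl37rt, Rpl6l and Rps23rg1), and 1, Rps19bp1, encodes a protein that binds Rps19 and is not itself part of the ribosome. ERAP1 is an aminopeptidase of the endoplasmic reticulum that trims peptides for antigen presentation. The ERAP1 WT group held both intact copies of the gene. The ERAP1+/- group carried 1 allele from which a Cre strain had removed exons 6 and 7. Both groups had the C57BL/6 background, were 8 weeks of age and received no dextran sulfate sodium and no sulfasalazine, and their sex was not given. RNA from 3 mice was pooled for each genotype and sequenced as 1 library from the 3' ends of transcripts, so that no difference below has a replicate check, no p-value is given, and variation between mice cannot be told apart from genotype.

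Ribosomal proteins are needed in nearly equal amounts, since each ribosome takes up mostly 1 copy of each, and their mRNAs are among the most abundant of dividing or secreting cells. In mammals many of these mRNAs begin with a C followed by a run of pyrimidines, the terminal oligopyrimidine or TOP motif, through which mTOR signaling controls their translation. In the intestine, where the epithelium is renewed continuously from crypts, ribosome production is known to be high in proliferating crypt cells and in secretory cells. Mutations in several of these genes cause Diamond-Blackfan anaemia, a failure of red blood cell production.

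Counted reads numbered 8114826 for WT and 8907515 for ERAP1+/-. All 12 markers of colon epithelium passed a log2(CPM + 1) of 4, with summed levels of 13817 CPM for WT and 12961 CPM for ERAP1+/-. Of the 12, 9 were lower in the ERAP1+/- library, from Krt20 (log2 difference -1.20) and Car1 (-0.82) to Lgals4, which was nearly equal (-0.007). The 3 higher ones were Muc2 (1.19), Cdx2 (0.69) and Cdx1 (0.45). Without Muc2, which is also a goblet cell marker, the sums were 12270 and 9420 CPM. CPM is the read count relative to the library size after scaling with TMM, a method that aligns the bulk of genes between libraries. Erap1 had 229 and 2 reads. These reads come from the 3' end of the gene, outside the deleted exons, so that they do not check the labels directly, and 2 reads is less than 1 intact copy would give. The 95% intervals given below are exact and hold counting error alone. A gene at 0 may have had up to 3 reads, which is 0.386 CPM for WT and 0.322 CPM for ERAP1+/-.

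Ribosomal protein mRNAs took a larger share of the ERAP1+/- library. The 91 symbols together had 418848 WT reads, or 5.16% of that library (Clopper-Pearson interval 5.15% to 5.18%), and 620544 ERAP1+/- reads, or 6.97% (6.95% to 6.98%). The large subunit took 2.79% of WT and 3.73% of ERAP1+/- reads, and the small subunit 2.33% and 3.18%. In bulk tissue, fewer cells of a type and less RNA per cell cannot be told apart, and the same holds for more cells or more RNA.

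Nearly every member was higher by a small amount. Of the 91 symbols, 83 reached a log2(CPM + 1) of 4 in 1 or both libraries, and 82 of these were higher in the ERAP1+/- library. The exception was Rps4l. Among all 8013 symbols past this level, 47.3% were higher and 52.7% lower. A difference of more than 25% upward or more than 20% downward, the same size on the log2 scale, was then counted as marked. Marked higher were 40 members and marked lower 1, which is 48.2% of the 83 on the higher side, against 16.7% of all symbols marked higher and 21.9% marked lower. No member past the level differed more than 2-fold, against 5.34% of all symbols, 1.39% higher and 3.96% lower. The counting interval of the ratio lay above 1 for 81 of the 83 and below 1 for 1, against 25.5% and 32.4% of all symbols. Because ribosomal protein mRNAs are abundant, the 3738 symbols at or above the mean level of the lowest standard member were also counted, and 42.3% of those were higher, 11.9% marked higher and 21.7% marked lower.

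The median log2 difference of the 77 standard members, ERAP1+/- minus WT, was 0.31, and they lay within a narrow band. All 77 were higher, from 0.08 for Rpl13a to 0.83 for Rps6, or from 5.47% to 79.7% higher with a median of 24.3%. The interquartile range of the standard members was 0.25 to 0.40, whereas that of all symbols past the level was -0.28 to 0.21, with a median of -0.03. Placed among all symbols, the standard members ranged from the 61.2nd to the 97.5th percentile of the difference, with a median at the 82.7th. Summed over the 77, the ratio of scaled reads was 1.238 (interval 1.233 to 1.243). Under scaling by the total count alone, the median of all symbols moved up by 0.13, to 0.11, and that of the standard members to 0.44. With it, 68 of the 77 were marked higher in place of 37. The share of all symbols marked higher was not counted under that scaling, so that the 68 have no matching background. The distance between both medians was 0.34 with TMM and 0.33 with the total count.

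**Figure D1:**
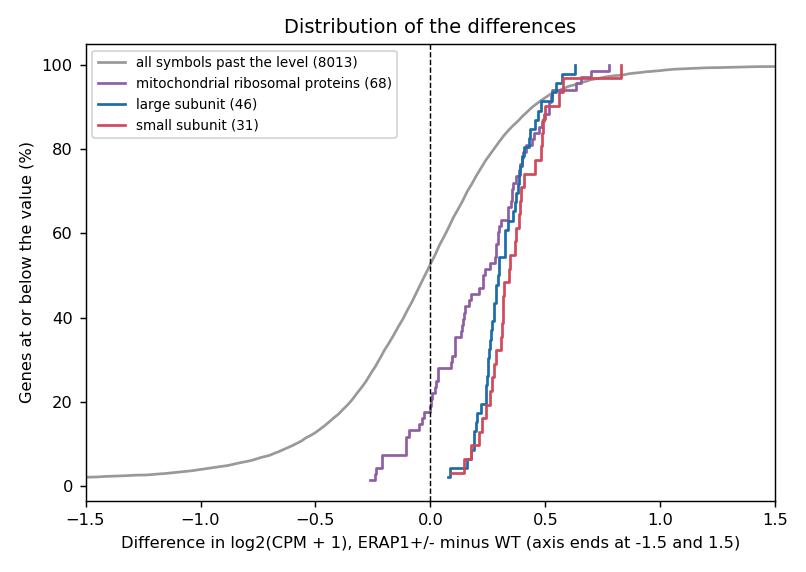
Cumulative share of genes (y axis, percent) at or below each difference in log2(CPM + 1), ERAP1+/- minus WT (x axis), for all 8013 symbols past the level, mitochondrial ribosomal proteins and both cytosolic subunits. Both subunit curves start above 0 and rise steeply between 0.08 and 0.83, while the curve of all symbols crosses 0 near its middle.

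The 77 did not share 1 ratio beyond counting error. The intervals of 24 lay above the summed ratio, those of 18 lay below it, and 35 held it. The standard deviation over the 77 log2 differences was 0.13. The spread between pools of mice cannot be estimated from these libraries, so that a rank among the 77 is a description of this pair.

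Rps6, the small subunit protein that S6 kinases phosphorylate (GRCm38 chromosome 4, 86854660 to 86857412, minus strand), had the highest difference and the lowest WT level of the 77. It had 251 WT and 540 ERAP1+/- reads, or 32.3 and 58.1 CPM, a ratio of 1.80 (1.54 to 2.10). Rpl36, a large subunit protein (chromosome 17, 56613416 to 56614243), had 1985 and 3684 reads, a log2 difference of 0.63 and a ratio of 1.55 (1.47 to 1.64). The intervals of these 2 genes lay above the summed ratio of the family.

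Rps2, which lines the channel where mRNA enters the small subunit (chromosome 17, 24718116 to 24721929), had 1695 and 3033 reads, a log2 difference of 0.58. Rpl15 of the large subunit (chromosome 14, 18267823 to 18271391, minus strand) had 287 and 515 reads, a log2 difference of 0.57. Rps29, a zinc-binding protein of the small subunit (chromosome 12, 69157722 to 69159186, minus strand), had 11692 and 20599 reads, a log2 difference of 0.56. These 3 genes differ widely in level and little in ratio, and the interval was wide for Rpl15 (1.30 to 1.74) and narrow for Rps29 (1.44 to 1.51).

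At the other end stood Rpl13a, a large subunit protein (chromosome 7, 45125558 to 45128761, minus strand), with 11350 and 14331 reads, or 1461 and 1541 CPM. Its interval of 1.03 to 1.08 lay above 1 and below the summed ratio. Rpl24, the gene mutated in the Belly spot and tail mouse (chromosome 16, 55966275 to 55971435), had 1210 and 1537 reads. It was the only standard member whose interval held 1 (0.983 to 1.15). Rps14, whose human counterpart is lost in the 5q- syndrome, had 22345 and 28483 reads, a log2 difference of 0.09. Its many reads gave an interval of 1.05 to 1.08, also below the summed ratio.

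**Figure D2:**
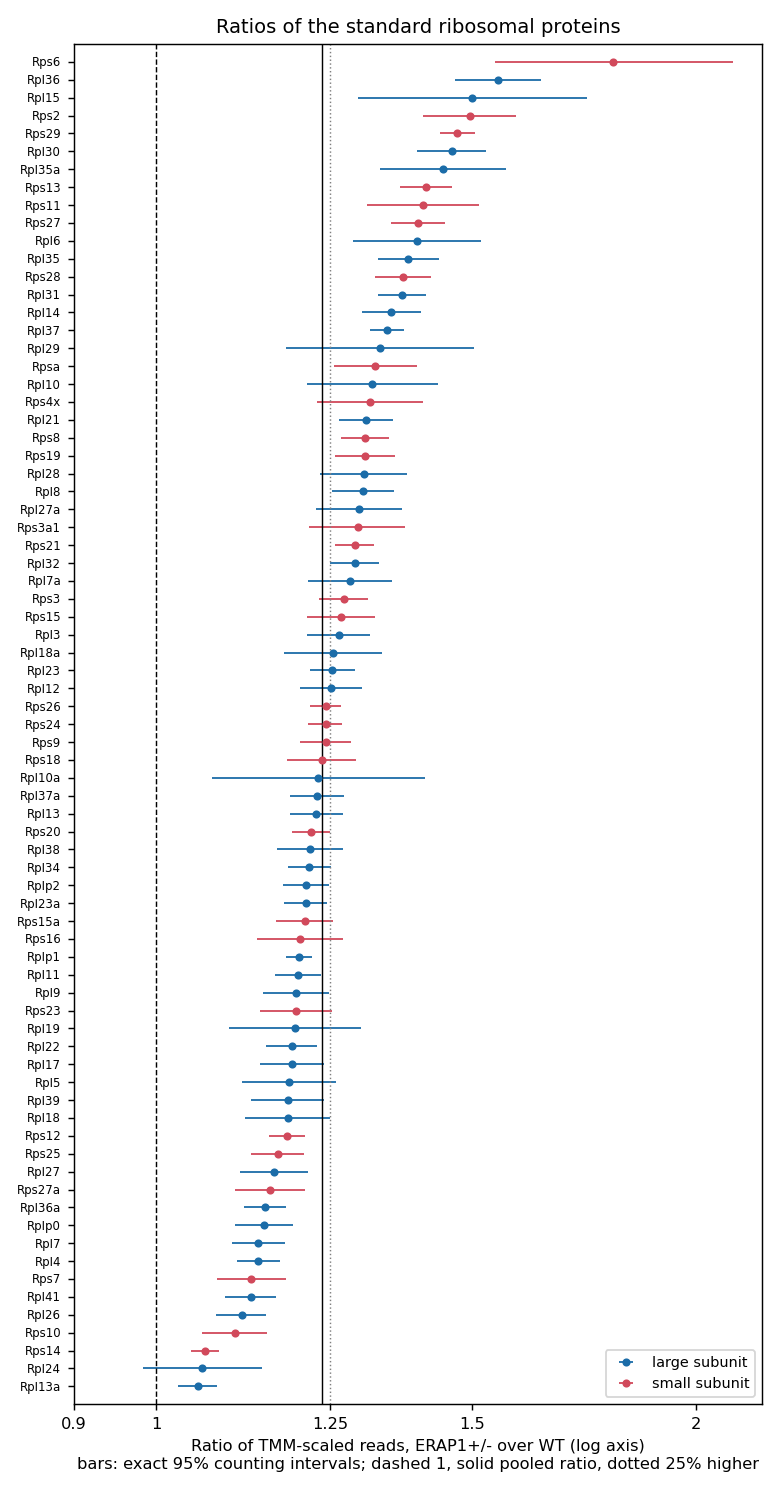
Ratio of TMM-scaled reads, ERAP1+/- over WT (x axis, log scale), for the standard members reported by name (y axis), with exact 95% counting intervals as bars and vertical lines at 1, at the summed ratio of 1.238 and at 25% higher. Every point lies to the right of 1, Rps6 stands apart at 1.80, and Rpl24 alone has a bar that reaches 1.

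The start sites show a feature that the symbol rule did not use. In the RefSeq promoter table (GRCm38.p6), 69 of the 91 symbols and 57 of the 77 standard members had an entry. A pyrimidine start was counted where a C followed by at least 4 bases that are each C or T began within 5 bases of an annotated start, on the strand of the gene. Of the 57, 27 (47.4%) had 1, against 24.0% of 6330 symbols past the level, 21.2% of all 27025 symbols of the table, and 17 of 69 mitochondrial ribosomal proteins (24.6%). The windows below run over the 30 bases around the start, with the pyrimidine run in capitals. They are shown for the 3 highest (Rps6, Rps2 and Rpl15) and the 3 lowest differences (Rpl13a, Rpl24 and Rps10) among the 57 standard members with an entry, for a stalk protein, for a paralog with a run, and for Rpl3l. Rpl24 and Rpl3l have no run.

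Rps6, chr4:86857353-86857382, minus strand: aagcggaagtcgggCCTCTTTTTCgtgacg
Rps2, chr17:24720048-24720077, plus strand: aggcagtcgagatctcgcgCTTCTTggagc
Rpl15, chr14:18270972-18271001, minus strand: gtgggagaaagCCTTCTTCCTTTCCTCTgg
Rpl13a, chr7:45128731-45128760, minus strand: gaaaccctgcgacaagaCCTCCTCCTTTCC
Rpl24, chr16:55966260-55966289, plus strand: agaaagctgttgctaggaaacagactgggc
Rps10, chr17:27635230-27635259, minus strand: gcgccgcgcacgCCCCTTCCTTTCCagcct
Rplp2, chr7:141447636-141447665, plus strand: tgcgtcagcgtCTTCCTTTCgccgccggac
Rpl22l1, chr3:28805493-28805522, plus strand: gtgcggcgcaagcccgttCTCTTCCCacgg
Rpl3l, chr17:24727811-24727840, plus strand: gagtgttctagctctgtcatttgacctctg

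The run was found in Rps6 with the highest difference and in Rpl13a with the lowest, but not in Rpl24 with the second lowest of the 57. The 27 members with a run had a median log2 difference of 0.31 (0.08 to 0.83), and the 30 without had 0.28 (0.085 to 0.50). The ranges overlapped from 0.085 to 0.50. Since 0.50 is the highest value without a run, any difference above it within the 57 necessarily belonged to a member with a run. Rpl36 (0.63), Rps29 (0.56) and Rpl30 (0.55) also lay above 0.50 but had no entry, so that their starts were not examined. An annotated start can lie some bases from the start in use, and a window without a run says only that these letters were not found there. In the 300 bases around the start, CCGGAAGT, the core of sites for ETS factors, was found on either strand in 11 of the 57 (19.3%), against 9.49% of symbols past the level and 4.31% of the table. AAGATGGC, the core of the YY1 motif, was found in 5 (8.77%), against 5.64% and 3.19%. Among other translation genes, CCGGAAGT was found in 17.4% of 69 mitochondrial ribosomal proteins and 30.8% of 26 biogenesis genes, and AAGATGGC in 17.4% of the mitochondrial ribosomal proteins and 17.4% of 23 initiation factors. Both motifs were searched on both strands, and the reverse complement of the ETS core holds letters that can also lie in a pyrimidine run.

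The mRNAs of the standard members are short. In GENCODE M21 their transcripts had a median of 761 bases, against 2989 for the 7655 protein-coding symbols past the level, with 456 coding bases against 1353, 66 bases of 3' untranslated region against 1007, and 5 exons against 9. In 42 of the 77 the 3' untranslated region is shorter than the 75-base read, so that reads from the 3' end reach into coding sequence. The 77 genes lie on 19 chromosomes, with 14 on chromosome 7. The 4 on chromosome X, Rpl10, Rpl36a, Rpl39 and Rps4x, had a median log2 difference of 0.32, beside 0.31 for the others. Over the 77 genes, the difference had a Spearman rho of -0.01 with transcript length and -0.23 with the mean level, which are descriptions across genes of the same libraries.

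Levels within the family spanned a wide range. Since the method counts the 3' end of each transcript, CPM was not divided by length. The highest CPM was that of Rplp1, 3001 for WT and 3607 for ERAP1+/-. The lowest was Rps6 for WT (32.3 CPM) and Rpl15 for ERAP1+/- (55.4 CPM), which gives a range of 92.9-fold and 65.2-fold. The median level was 544 CPM for WT and 711 CPM for ERAP1+/-.

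The order of the genes was nearly the same in both libraries. The same 10 genes were highest in each, holding 34.7% of the reads of the 77 for WT and 34.1% for ERAP1+/-. After Rplp1 and Rps14, the highest mean levels were those of Rps26 with 1989 and 2472 CPM, Rpl37 with 1663 and 2237 CPM, and Rps24 with 1718 and 2135 CPM. Across the 77 genes the log2 CPM of the libraries had a Pearson r of 0.996 and the CPM a Spearman rho of 0.994. Among the 100 symbols with the most reads, 16 were standard members for WT and 26 for ERAP1+/-.

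**Figure D3:**
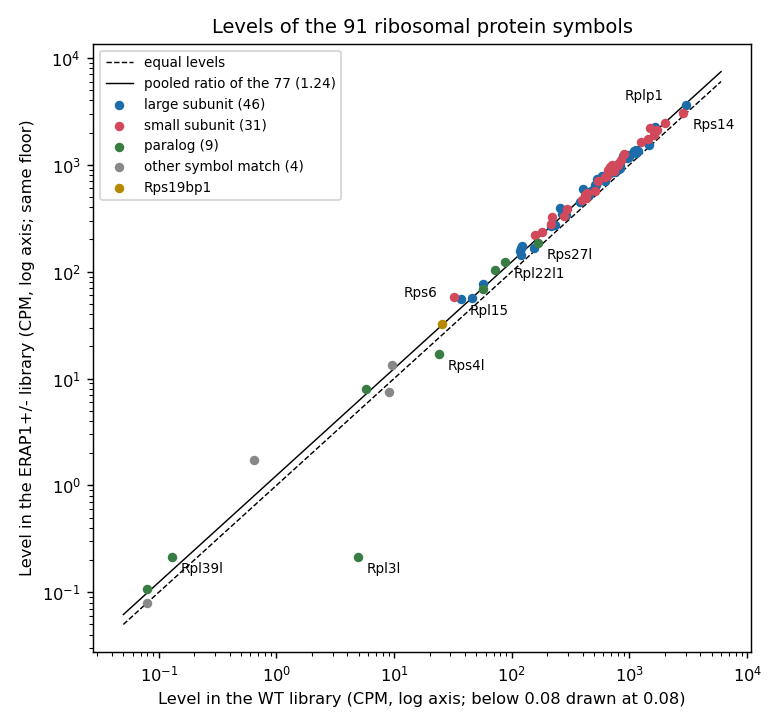
Level of each of the 91 symbols in the WT library (x axis, CPM, log scale) against the ERAP1+/- library (y axis, CPM, log scale), colored by class, with a dashed line at equal levels and a solid line at the summed ratio of 1.238. The 77 standard members lie above the dashed line from 32.3 to 3607 CPM, and Rpl3l, Rps4l and Rpl32l lie below it.

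Part of the level of a gene may depend on how reads that match several places were counted, since the mouse genome holds many processed copies of ribosomal protein mRNAs. For each standard member, the 75-base stretches of the last 300 bases of its transcripts were looked up in the transcripts of other genes. In 15 genes none was shared, in 39 under 50% were shared, and in 23 at least 50% were shared. The median mean level of these groups was 763, 715 and 499 CPM, and the median log2 difference 0.32, 0.34 and 0.29. Over the 77 genes, the rho of the shared percentage was -0.21 with the mean level and -0.01 with the difference.

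The genes of lowest level differed in this respect. Rps6 shared 81.4% of its stretches with 9 pseudogenes, Rpl10a shared 69.0%, Rpl15 43.7% and Rpl29 37.6%. No read of either library was counted on the pseudogenes that share with Rps6 or with Rpl15. A pseudogene without an entry in the counts also gives 0, so that this does not show where reads went. Rpl36a shared 100% and still had 1179 and 1356 CPM, and Rpl6 shared none at 120.2 and 167.9 CPM. Whether reads with several matches were dropped in the counting was not tested, and the level of a gene with a high shared percentage is uncertain. That limit also covers Rpl36 (87.6%) and Rpl24 (79.2%), named above for their high and low differences. The 23 symbols ending in -ps held 210 WT and 250 ERAP1+/- reads in all.

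**Figure D4:**
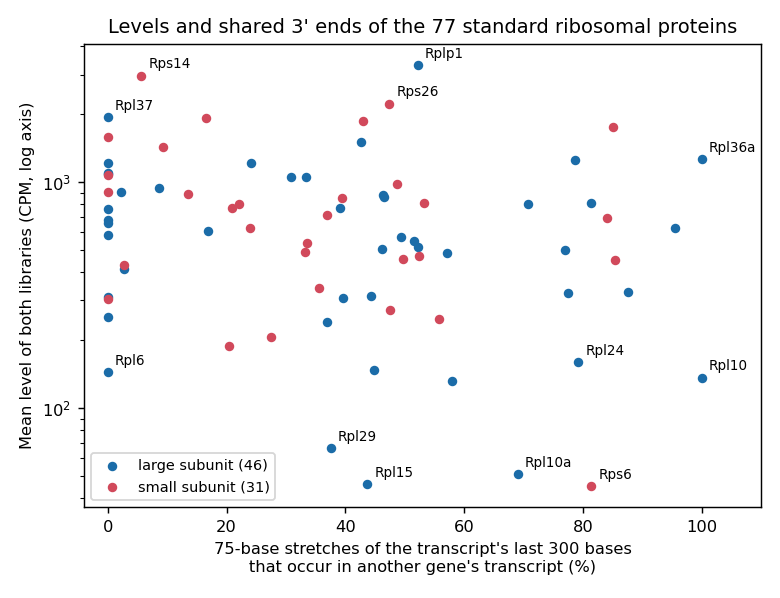
Percentage of 75-base stretches in the last 300 transcript bases that occur in another gene (x axis) against the mean level of both libraries (y axis, CPM, log scale) for the 77 standard members, colored by subunit. Rps6 and Rpl10a combine a low level with a shared end, while Rpl36a shares its whole end at 1179 and 1356 CPM.

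In the large subunit, all 46 proteins were higher, with a median log2 difference of 0.29. Marked higher were 21 (45.7%), against 16.7% of all symbols. The stalk that recruits the elongation factors is formed by Rplp0, which anchors it to the ribosome, and the acidic proteins Rplp1 and Rplp2. Rplp0 had 4799 WT and 6596 ERAP1+/- reads, Rplp1 had 23316 and 33556, and Rplp2 had 7407 and 10747. Their log2 differences were 0.20, 0.27 and 0.28, and none was marked higher. The ratio of Rplp1 to Rplp2 reads was 3.15 (3.07 to 3.23) for WT and 3.12 (3.05 to 3.19) for ERAP1+/-, intervals that overlap.

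Rpl5 and Rpl11 bring the 5S ribosomal RNA into the large subunit and, when free of the ribosome, bind Mdm2. Rpl5 had 1803 and 2560 reads and Rpl11 had 7690 and 11043, with log2 differences of 0.25 and 0.26. The proteins that narrow the exit tunnel of the growing peptide, Rpl4, Rpl17 and Rpl39, had log2 differences of 0.19, 0.25 and 0.24. These parts of the large subunit lay slightly under the median of the 46, and each interval lay above 1.

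In the small subunit, all 31 proteins were higher, with a median log2 difference of 0.34. Marked higher were 16 (51.6%), against 16.7% of all symbols. Along the path of the mRNA to the decoding center, Rps2 was marked higher, as were Rps3 with 796.5 and 1013 CPM and Rps15 with 432.5 and 548 CPM. Rps23, which sits at the decoding center, had 391.6 and 468.6 CPM, a log2 difference of 0.26. Where the mRNA leaves the subunit, Rps28 and Rpsa had log2 differences of 0.46 and 0.40, while Rps26 had 0.31 and Rps14 had 0.09. The exit side thus held Rps14 near the low end of the family, and Rps28 and Rpsa above the family median of 0.31.

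The subunits stood close together. Large subunit genes had 1.198 reads (1.191 to 1.206) for each read of the small subunit for WT and 1.173 (1.167 to 1.179) for ERAP1+/-. These intervals do not overlap, and the difference is small beside the spread among single members.

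The 9 genes of the list for Diamond-Blackfan anaemia were all higher, with a median log2 difference of 0.31. Rps19, the gene most often mutated in that disease, had 4228 and 6618 reads, a log2 difference of 0.39 and a ratio of 1.31 (1.26 to 1.36). Rpl35a had 943 and 1631 reads, a log2 difference of 0.53. These 2 were marked higher, which is 22.2% of the 9, against 16.7% of all symbols. Rps24 (0.31), Rps7 (0.18) and Rps10 (0.15) were smaller in log2 difference, and the range of the list lay within that of the 77.

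Paralogs did not move as 1 group. Of the 9, 5 passed the level, and 4 of those were higher. Rpl22l1, the paralog of Rpl22, had 674 and 1153 reads, a log2 difference of 0.51. Set against Rpl22, this was 10.5% (9.70% to 11.4%) of its reads for WT and 12.6% (11.9% to 13.4%) for ERAP1+/-, so that the paralog was higher relative to its parent. Rpl36al, the paralog of Rpl36a, had 561 and 960 reads, with 6.12% (5.61% to 6.67%) and 7.61% (7.12% to 8.13%) of the reads of the parent. Both paralogs shared end stretches with other genes, 56.6% for Rpl22l1 and 64.0% for Rpl36al, so that their counts are uncertain.

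Rps27l, a paralog of Rps27 known as a p53 target, went the other way relative to its parent. It had 1286 and 1738 reads, a log2 difference of 0.17, against 0.48 for Rps27, and its reads were 24.5% (22.99% to 26.0%) of those of Rps27 for WT and 19.7% (18.7% to 20.8%) for ERAP1+/-. Rpl7l1, which takes part in assembly of the large subunit, had 444 and 634 reads, with 7.62% and 7.97% of those of Rpl7 and overlapping intervals. Rps27rt shared 87.2% of its end stretches with other genes, among them Rps27, and had 45 and 75 reads, under the level.

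Rps4l was the only member past the level that was lower. It had 186 WT and 159 ERAP1+/- reads, or 23.9 and 17.1 CPM, a ratio of 0.714 (0.574 to 0.887). GENCODE M21 annotates it as a transcribed processed pseudogene on chromosome 6 (148354656 to 148355598). Its X-linked parent Rps4x had 1391 and 2190 reads, and Rps4l had 13.4% of the reads of Rps4x for WT and 7.26% for ERAP1+/-.

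Rpl3l, which replaces Rpl3 in striated muscle (chromosome 17, 24727820 to 24736143), had the largest difference of all 91 symbols and did not reach the level. It had 38 WT and 2 ERAP1+/- reads, or 4.89 and 0.215 CPM, a ratio of 0.0440 (0.00514 to 0.170). Rpl3 had 3933 and 5950 reads. Of 14 skeletal muscle markers, 11 passed the level and all 11 were lower. The 14 summed to 1232 CPM for WT and 21.1 CPM for ERAP1+/-, with Atp2a1 and Casq1 at 0 in the latter. The part of muscle in the Rpl3l value was not tested.

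The remaining paralogs and matches ranged from no read to 301 reads. Rpl10l and Rpl39l, both expressed mainly in testis, had 0 and 1 read and 1 and 2 reads, at or under the limit that a count of 0 allows. Rps23rg1 had 0 reads in both libraries. Rpl32l, a processed pseudogene by its annotation, had 70 reads in each library and a ratio of 0.835 (0.591 to 1.18). Rpl6l had 5 and 16 reads and Rpl37rt 74 and 125. Rps19bp1 had 198 and 301 reads, a log2 difference of 0.33, close to the median of the standard members. Except for Rps23rg1, every count was above 0 in 1 or both libraries.

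The other genes of translation were set beside the family from lists by function, as counts of genes past the level, to be read against the 16.7% of all symbols marked higher. Of the ribosomal proteins whose symbols fall outside the rule, Fau, a fusion of a small subunit protein with a ubiquitin-like protein, had a log2 difference of 0.18 and the scaffold Rack1 had 0.38. All 6 elongation factors were higher and 4 (66.7%) were marked so, with a median of 0.36. Eef1b2, which reloads eEF1A with GTP, had 589.9 and 844.4 CPM, a log2 difference of 0.52. Eef1g had 0.40, Eef2, the translocase, had 0.24, and Eif5a had 143 and 147 CPM, a difference of 0.04. Initiation factors were more mixed, with 20 of 29 higher, 7 (24.1%) marked higher, none marked lower and a median of 0.16. Eif3m (203 and 384 reads) and Eif2s3x (155 and 271 reads) had the highest differences, 0.64 and 0.52. Eif3a (-0.17) and Eif6 (-0.14) were lower. With total count scaling, 26 of the 29 were higher, but the matching share of all symbols was not counted.

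Genes of ribosome assembly lay near the ribosomal proteins. Of 25 past the level, 23 were higher and 15 (60%) were marked so, with a median of 0.37. Dkc1, the pseudouridine synthase of box H/ACA particles, had 490 and 1022 reads, a log2 difference of 0.79. Polr1b, a subunit of RNA polymerase I, had 37 and 77 reads and did not reach the level. Nip7 (-0.23) and Ltv1 (-0.05) were the lower members, and Ltv1 turned higher under scaling by the total count. Host genes of small nucleolar RNAs, a class also known for pyrimidine starts, were not uniform, with 3 of 5 higher and a median of 0.12. Snhg5 had 117 and 103 reads and Snhg3 316 and 324, log2 differences of -0.41 and -0.22. Snhg6 with 36 and 97 reads and Snhg15 with 29 and 76 reads were higher but under the level.

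Mitochondrial ribosomal proteins, which belong to the separate ribosome of that organelle, were higher less uniformly. Of 68 past the level, 55 were higher, 25 (36.8%) were marked higher and none marked lower, with a median of 0.23. Scaled by the total count, 63 of the 68 were higher, again without a matching share of all symbols. Their summed share was 0.276% of WT and 0.343% of ERAP1+/- reads. Mrps28 (36 and 91 reads) and Mrps27 (43 and 101 reads) had the highest differences among genes with at least 100 reads over both libraries but were under the level, and Mrpl41 (-0.26) and Mrpl14 (-0.24) had the lowest. For each read of a mitochondrial ribosomal protein, the 91 symbols had 18.7 reads (18.4 to 18.9) for WT and 20.3 (20.1 to 20.5) for ERAP1+/-.

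**Figure D5:**
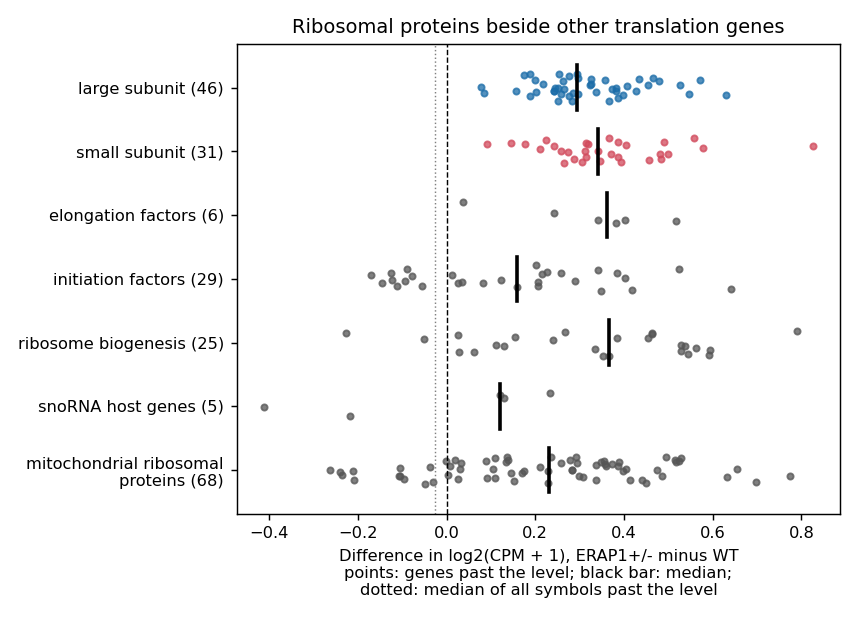
Difference in log2(CPM + 1), ERAP1+/- minus WT (x axis), of each gene past the level (points) in both subunits and 5 other lists of translation genes (y axis, number of genes in parentheses), with black bars at the medians and a dotted line at the median of all symbols, -0.03. Both subunits lie wholly above 0, whereas initiation factors and mitochondrial ribosomal proteins reach from below 0 to 0.64 and 0.78.

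The libraries also differed in markers of other cells and in technical shares. The summed levels and the genes named at 0 cover every marker of a list, those under the level included. All 7 goblet cell markers were higher, with summed levels of 8815 and 14311 CPM, and 6 of 7 plasma cell markers past the level were higher, with 496.5 and 2111 CPM. Of 8 crypt proliferation markers, 4 passed the level and all 4 were higher, but the counting interval lay above 1 for only 2, Mki67 and Top2a. Pcna was nearly equal, with 15.31 and 15.48 CPM. The 8 markers summed to 221.7 and 313.6 CPM, with Olfm4 at 0 in both libraries. All 8 smooth muscle markers were lower, with 10904 and 5522 CPM, and all 11 markers of suprabasal epidermis past the level were lower, with 2864 and 20.8 CPM and with Ivl, Dsc1, Dsg1a and Dsg1b at 0 in the ERAP1+/- library. The 4 markers of basal stratified epithelium past the level were lower. The 6 markers of that list summed to 357.8 and 170.5 CPM, with Trp63 at 0 in the ERAP1+/- library. Dst alone had 178.2 and 149.9 CPM, while the 3 others past the level, Krt5, Krt14 and Krt15, were each lower past 2-fold. Of 7 lymphocyte markers 1 passed the level, with summed levels of 19.95 and 37.7 CPM and Cd3e at 0 in the WT library. Mitochondrially encoded transcripts and ribosomal RNA took 18.02% and 16.69% of the reads. The part of these cells in the difference of the family was not tested.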

How the data were processed

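Total RNA of the intestine was pooled by the authors from 3 mice per genotype, and 1 library per genotype was made with the QuantSeq 3' kit (FWD) and read as single 75-base ends. The deposited counts are whole numbers of reads for each gene symbol, with no normalization by the authors. The methods name STAR with HTSeq and also Bowtie2 with RSEM, and which of them made the counts is not given in the sources used here. The build was GRCm38. Groups were taken from the labels.

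From the counts, TMM factors (0.958 for WT and 1.04 for ERAP1+/-) came from edgeR 4.0.16 under R 4.3.3. CPM and log2(CPM + 1) followed, on which genes with few reads show too small a change. A level of at least 4 in 1 or both libraries was required for counts past 2-fold and for marked differences (over 25% higher or 20% lower). Ratios carry exact conditional binomial 95% intervals and shares Clopper-Pearson intervals (scipy 1.17.1). Reads without molecular identifiers are not independent molecules. The calculation was tested on simulated data. No test between genotypes could be fitted with 1 library each.

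Coordinates, transcripts and shared ends were taken from GENCODE M21, in which 90 of the 91 symbols had an entry, and start windows from RefSeq. The members and the gene lists were chosen with earlier results of these data known. Genes named were those with the 5 highest and 5 lowest differences among members with at least 100 reads, the 5 highest levels, the members of the functional groups and paralog pairs described, members at 0 in 1 library, and the 2 highest and 2 lowest of each related list. Further genes named as examples (Rpl3l, Rpl36a, Rpl6, Rpl10a and Rpl29 in their sentences on level and shared ends, Rpl30 on start sites, and the remaining matches) were chosen after their values were seen. The alternatives were DESeq2 1.42.0 size factors, total counts, a pseudocount of 0.1, other filters, thinning of the deeper library, lists left out before scaling, and pseudogene reads added to their parents. Values of a few members are not reported here. Protein sequences, flow cytometry and RT-qPCR were not analysed here.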

Additional observations from a re-analysis of the deposited data

How the results depend on the processing

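All 77 standard members stayed higher in the ERAP1+/- library under all 13 settings, the main one included. Settings that change only the filter or the gene list leave the value of each gene as it was. They could not alter this count, and a pseudocount cannot change a sign. For all members past the level, scaling by the total count gave a median log2 difference of 0.44 and 72 members marked higher. The median of all symbols was 0.11 under that scaling, and their share marked higher was not counted. Thinning the deeper library gave a median of 0.32 for the members. With no filter on low values, and with at least 10 reads over both libraries, 1 member was lower past 2-fold and 2 were marked lower, since Rpl3l then entered. The share of the members was 6.30% and 8.36% without mitochondrial transcripts and ribosomal RNA, 5.19% and 6.98% without the markers of stratified epithelium, skeletal muscle and plasma cells, and 5.42% and 7.21% without the symbols past 2-fold, an alternative chosen after seeing the data. These shares moved because the total was smaller. For the related lists, the other scalings were also added after seeing the data, and with the total count the medians were 0.49 for elongation factors, 0.28 for initiation factors, 0.25 for small nucleolar RNA hosts, 0.49 for ribosome biogenesis and 0.35 for mitochondrial ribosomal proteins. Of 470 values of single named genes under these alternatives, 434 moved by less than their counting interval, 36, all with the total count, moved further and 0 changed sign. The 434 include the values under the other filters, which repeat the main values because a filter changes only which genes are counted. They also include Rpl10l, which with 0 WT reads has no finite interval and could not be counted as moved. With a pseudocount of 0.1, Rpl10l went from 0.15 to 1.05. No paired analysis was possible because both genotypes have a single library, and for the same reason no library could be left out. Depth limits Rpl3l, Rpl39l, Rpl10l and Rpl6l, and the variation between mice is unknown.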
